A study of Rattus norvegicus with 2 samples.

Results

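The genes described here are those of the proteases that mast cells and basophils store in their secretory granules, together with the proteoglycan machinery that holds them there. They are Srgn, Ndst2, Cpa3, Cma1, Mcpt1 and Mcpt9, chosen by name, and all 6 were among the 14913 distinct names of the count table. Poly(A) RNA was sequenced from RBL-2H3, a cell line from a rat basophilic leukemia that serves as a common model of mast cells and basophils. The IgE library came from wild type cells incubated with IgE, and the untreated library from wild type cells that received no treatment. Each condition was 1 library, so every difference below is between 2 libraries and no test across cultures was possible. The sources used here do not give the dose or duration of IgE, or say whether antigen followed it. A single transformed line also limits what the values stand for, since granule contents differ between such lines and tissue mast cells.

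Serglycin is a small proteoglycan whose core protein carries long, sulfated glycosaminoglycan chains. Their negative charge packs positively charged proteases, histamine and serotonin into the granule matrix, and in mice that lack serglycin, or the sulfating enzyme Ndst2, mast cells fail to store several of these proteases. The proteases themselves are chymases, tryptases and a carboxypeptidase, and they are released together with the matrix when receptor-bound IgE is crosslinked.

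Beside the reads, the DNA just before each gene's start is given first, because its base composition and motifs differ between the genes. Each line below is the 150 bases upstream of the start of a RefSeq transcript, 5′ to 3′ on the gene's strand, in build GRCr8, which is not the build named in the submitters' processing notes (rn6). Capitals mark AGATAA on either strand, a sequence that GATA factors can bind, and TATAAA on the gene's strand, the core of a TATA box. The capitals of these motifs do not overlap.

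Srgn (chr20:31000104-31000253, minus strand): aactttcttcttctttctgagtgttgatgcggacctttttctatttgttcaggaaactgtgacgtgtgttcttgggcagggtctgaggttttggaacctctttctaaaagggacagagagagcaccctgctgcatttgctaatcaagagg
Ndst2 (chr15:3612625-3612774, plus strand): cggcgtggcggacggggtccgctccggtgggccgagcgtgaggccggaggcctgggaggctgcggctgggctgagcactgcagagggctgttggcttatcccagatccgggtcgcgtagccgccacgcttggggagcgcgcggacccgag
Cpa3 (chr2:104673238-104673387, minus strand): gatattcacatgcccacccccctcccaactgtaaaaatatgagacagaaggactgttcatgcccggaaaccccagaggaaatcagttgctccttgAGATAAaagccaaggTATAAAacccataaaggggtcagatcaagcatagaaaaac
Cma1 (chr15:33390134-33390283, minus strand): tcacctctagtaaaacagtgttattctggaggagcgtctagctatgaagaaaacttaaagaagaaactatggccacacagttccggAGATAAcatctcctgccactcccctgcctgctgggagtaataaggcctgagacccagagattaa
Mcpt1 (chr15:33841456-33841605, plus strand): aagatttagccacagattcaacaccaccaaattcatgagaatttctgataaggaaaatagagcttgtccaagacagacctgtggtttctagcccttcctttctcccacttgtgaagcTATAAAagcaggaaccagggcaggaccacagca
Mcpt9 (chr15:33827280-33827429, plus strand): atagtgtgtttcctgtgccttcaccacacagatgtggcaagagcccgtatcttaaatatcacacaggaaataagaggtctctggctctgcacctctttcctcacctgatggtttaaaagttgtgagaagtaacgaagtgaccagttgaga

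AGATAA was found before Cpa3, at position -55 from the start, and before Cma1, at -64. Other sequences with the letters GATA, such as TGATAA in the Mcpt1 window, were not searched. AGATAA was in 5.96% of the same windows of 33469 rat promoters. TATAAA stood at -40 before Cpa3 and at -33 before Mcpt1, and in 5.15% of all windows. CATGTG, an E-box of the kind that MITF can bind, was found on either strand before Cpa3 only among these 6 genes, with 7.12% of all windows holding it. GGGCGG, the core of a GC box, was in none of the 6 windows on either strand, against 26.0% of all. With 250 upstream bases it was in 2 promoter windows of the group, which need not belong to different genes, against 30.5% of all. Base composition set Ndst2 apart. Its 250 upstream bases were 75.2% G or C and held 27 CpG pairs, whereas those of the other members were 40.8% to 49.6% G or C with 1 to 7 CpG pairs. The median over all promoters was 51.2% with 5 CpG pairs. A match to these letters is a description of the window and not evidence of binding.

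The count table held 26268330 reads in the IgE library and 20917968 in the untreated library. The granule genes took 64427 of them in the IgE library and 46512 in the untreated library, or 0.245% and 0.222% of all counted reads. All 11 mast cell and basophil markers examined were present, among them the IgE receptor genes, Kit and Hdc, and none was 2-fold apart (log2 folds from -0.11 to 0.34). Their summed level was 7787.8 CPM (reads scaled to a common library size) with IgE and 7687.5 CPM untreated. Of markers of other cells, 3 of 12 for macrophages were in the table and summed to 3.21 CPM with IgE and 5.48 CPM untreated. All 3 were below 0 on the log2 scale, and Msr1 was over 2-fold lower, with 7 reads with IgE and 26 untreated (-2.13, -3.66 to -0.97). For neutrophils 2 of 12 summed to 1.49 CPM with IgE and 1.24 CPM untreated, with Camp at 0 reads in both. For lymphocytes 5 of 14 summed to 123 CPM with IgE and 114 CPM untreated, mostly Nkg7, and for fibroblasts and epithelium 4 of 13 summed to 3119.4 CPM with IgE and 3355.1 CPM untreated, mostly Vim, which blood cell lines also express. Of that list Col3a1 stood at 253 CPM with IgE and 281 CPM untreated (log2 fold -0.15, -0.21 to -0.10) and Thy1 at 148 and 145 CPM in that order (0.03, -0.04 to 0.10). The part of these markers in the results below was not tested.

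The question of the comparison was how IgE-treated cells differ from untreated cells in gene expression. In the granule group the differences were small and did not run in 1 direction. Cpa3, Mcpt9 and Srgn were higher in the IgE library, by 1.2, 1.27 and 1.09 times, while Mcpt1 was lower, at 0.856 times its untreated level. Ndst2 and Cma1 had counting intervals that included no change. None of the 6 genes was 2-fold apart, against a background of 2.63% of the 12102 genes tested, which are those with at least 20 reads in the 2 libraries together. The 95% counting interval of the log2 fold, derived from an exact binomial (Clopper-Pearson) interval, excluded 0 for 4 of the 6, against 38.5% of all genes tested. Narrow intervals come with depth, and the share was 46.4% among genes with 500 or more reads and 54.3% among those with 2000 or more. These intervals cover counting error only and say nothing of variation between cultures. With a coefficient of variation of 0.1 assumed between cultures, an alternative chosen after seeing the data, the interval included 0 for all 6.

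**Figure D1:**
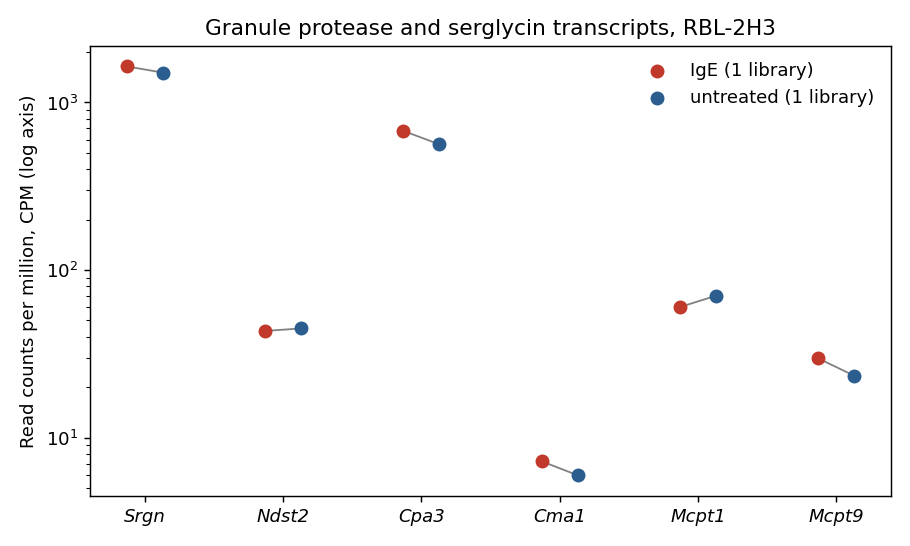
Level of each granule gene in CPM (log axis) in the IgE library (red, left of each pair) and the untreated library (blue, right), with a line joining the pair; each point is 1 library and has no error bar. Cpa3, Cma1, Mcpt9 and Srgn were higher in the IgE library and Mcpt1 and Ndst2 lower, all by small steps. Heights of different genes are not set against each other, since reads were not divided by transcript length.

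Serglycin was counted at 43020 reads in the IgE library and 31661 in the untreated library. After scaling, that was 1642.9 CPM with IgE and 1508.8 CPM untreated. The log2 fold was 0.12 (95% counting interval 0.10 to 0.14). The interval is narrow because the gene has so many reads, and not because the cultures were repeated. Of the 5079 genes with 2000 or more reads, 34.7% were at least as far from 0 as Srgn. The difference in this core protein transcript was inside the usual spread of such genes between these libraries, whose SD was 0.14 on the log2 scale.

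Ndst2 encodes the enzyme that removes acetyl groups from glucosamine in the heparin chain and replaces them with sulfate. It had 1134 reads in the IgE library and 940 in the untreated library, which came to 43.3 CPM with IgE and 44.8 CPM untreated. The log2 fold was -0.05 (-0.17 to 0.08). At this depth a difference was not detectable, and the interval ran from 0.886 to 1.06 times the untreated level. Its paralog Ndst3 was counted at 178 reads with IgE and 167 untreated (log2 fold -0.23, -0.54 to 0.09). Ndst1 was not analysed here.

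Cpa3 is the mast cell carboxypeptidase, which trims amino acids from the C-terminal end of peptides. It was counted at 17732 reads in the IgE library and 11822 in the untreated library. That was 677 CPM with IgE and 563 CPM untreated, a log2 fold of 0.27 (0.23 to 0.30). Among the 5079 genes with 2000 or more reads, 5.89% were at least as far from 0, and 4.04% were higher. Cpa3 thus stood toward the upper edge of well-counted genes without leaving their range, which ran from -0.81 to 0.87.

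Cma1 encodes a chymase that in mice is stored together with Cpa3, and there each of the proteins is needed for storage of the other. It had the fewest reads of the group, with 189 in the IgE library and 125 in the untreated library. The levels were 7.22 CPM with IgE and 5.96 CPM untreated. The log2 fold of 0.28 was close to that of Cpa3, but its interval of -0.06 to 0.61 included 0.

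Mcpt1, a chymase typical of connective tissue mast cells in the rat, was the only member whose interval lay below 0. It was counted at 1574 reads in the IgE library and 1473 in the untreated library, although the IgE library was the larger. The levels were 60.1 CPM with IgE and 70.2 CPM untreated, and the log2 fold was -0.22 (-0.33 to -0.12). Of genes with 2000 or more reads, 10.2% were at least as far from 0 and 4.0% were lower than Mcpt1.

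Mcpt9, another protease gene of the same chromosomal cluster, had the highest fold of the group. It was counted at 778 reads in the IgE library and 491 in the untreated library, or 29.7 CPM with IgE and 23.4 CPM untreated. The log2 fold was 0.34 (0.18 to 0.51). Among the 8369 genes with 500 or more reads, 4.37% were at least as far from 0 and 3.09% were higher.

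**Figure D2:**
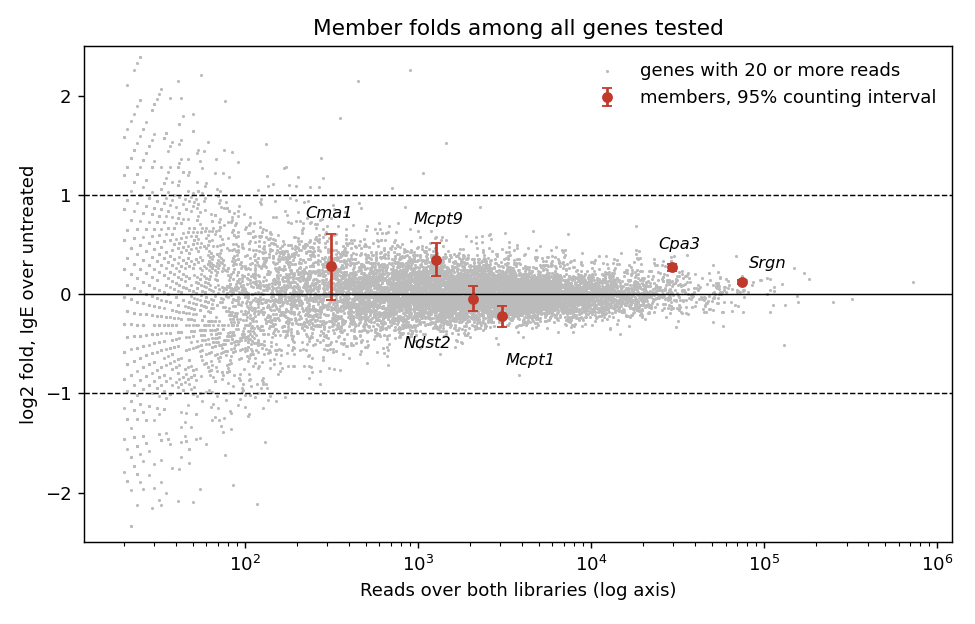
log2 fold of the IgE library over the untreated library (vertical axis) against reads summed over both libraries (horizontal log axis), for the 12102 genes tested (grey) and the 6 granule genes (red, bars are 95% counting intervals); dashed lines mark a 2-fold difference and 21 genes lie beyond the axis limits of 2.5. All 6 granule genes lie between the dashed lines, from -0.22 for Mcpt1 to 0.34 for Mcpt9.

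Over the 6 genes the median log2 fold was 0.19 and the mean 0.12, against a median of 0.00 and a mean of 0.01 over all 12102 genes tested. Without the weakly counted Cma1 the median was 0.12 and the mean 0.09. The counting interval lay above 0 for 3 of the 6 genes and below 0 for 1, so these averages do not describe a shared shift. In the authors' deposited table none of the 6 was among the 451 names selected as different, which were 3.02% of all names, and all had an adjusted p of 1. The unadjusted p in the authors' deposited table ran from 0.131 for Mcpt9 to 0.792 for Ndst2, as edgeR's exact test gives it with a fixed dispersion of 0.01. That dispersion is an assumed spread between cultures, so these p-values are no measure from replicates. It stands for the same coefficient of variation of 0.1 as the wider intervals above, so both rest on the same assumption.

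Mcpt1, Mcpt9 and Cma1 lie in the chymase locus on chromosome 15, where genes arose by repeated duplication. In the GRCr8 annotation 15 protein-coding genes run from Cma1 to Mcpt1, and Mcpt9 and Mcpt1 are direct neighbours at its end. Of these 15 genes, 5 were in the count table and 4 had 20 or more reads. The other counted genes were Mcpt1l3, with 27 reads in the IgE library and 37 in the untreated library, and Mcpt4, with 0 and 1 reads in that order. Mcpt1l3 had a log2 fold of -0.76 (-1.55 to -0.02), the same sign as its namesake Mcpt1. The related Mcpt1l2 had 16 reads in each library (log2 fold -0.31, -1.41 to 0.78). The names imply close copies, so how the authors' counting divided reads among Mcpt1, Mcpt1l2 and Mcpt1l3 is uncertain. As counted, the neighbours Mcpt9 and Mcpt1 differed in the sign of their folds within a single cluster. With the assumed coefficient of variation of 0.1 between cultures both intervals included 0 (Mcpt9 -0.09 to 0.78, Mcpt1 -0.64 to 0.19). Mcpt2, Mcpt8 and the tryptases Tpsab1 and Tpsb2 were not analysed here.

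The balance between granule genes can be compared between the libraries without transcript lengths if length affected reads alike in both. Length then cancels in a ratio of ratios. Whether the libraries were alike in this was not tested. The widest shift was between the neighbours Mcpt1 and Mcpt9. There were 2.02 reads of Mcpt1 for each read of Mcpt9 in the IgE library, against 3.00 in the untreated library. The log2 ratio was thus lower by 0.57 in the IgE library (difference -0.57, 95% counting interval -0.76 to -0.38). Cpa3 had 11.3 reads for each read of Mcpt1 with IgE, against 8.03 untreated (log2 difference 0.49, 0.38 to 0.60). Cma1 shifted against Mcpt1 by a like amount (0.50, 0.16 to 0.84). Intervals of read ratios cover counting error only, and none was computed with an assumed spread between cultures.

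Cpa3, Cma1 and Mcpt9 kept close to each other. Cpa3 had 93.8 reads per read of Cma1 in the IgE library and 94.6 in the untreated library, a log2 difference of -0.01 (-0.34 to 0.32). Against Mcpt9 the difference of Cpa3 was -0.08 (-0.25 to 0.09), and that of Cma1 was -0.07 (-0.43 to 0.30). The intervals with Cma1 are wide, so they do not show that these genes moved alike.

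Set against the core protein, the carboxypeptidase was higher and the chymase Mcpt1 lower. Cpa3 had 0.412 reads per read of Srgn with IgE and 0.373 untreated (log2 difference 0.14, 0.10 to 0.18). Mcpt9 was also higher relative to Srgn (0.22, 0.06 to 0.39). Mcpt1 had 0.0366 reads per read of Srgn with IgE and 0.0465 untreated (-0.35, -0.45 to -0.24). The differences of all 15 pairs come from only 6 folds and are not independent of each other, and pairs of other genes were not examined.

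**Figure D3:**
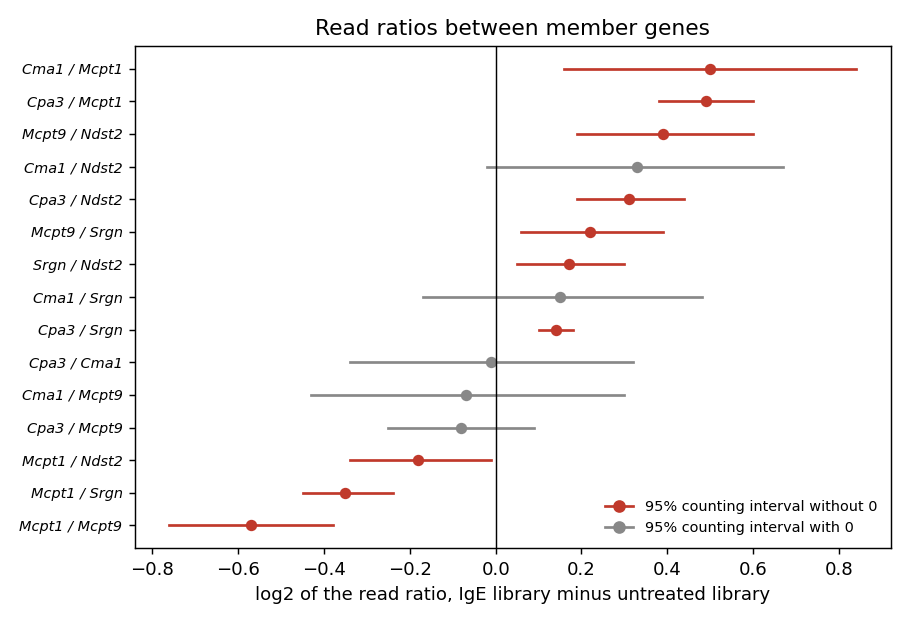
Difference in the log2 read ratio of 2 granule genes between the IgE and the untreated library (IgE minus untreated, horizontal axis) for all 15 pairs; points are differences and bars 95% counting intervals, red where the interval excludes 0 and grey where it includes it. The 3 pairs farthest from 0 all hold Mcpt1, from -0.57 for Mcpt1 over Mcpt9 to 0.50 for Cma1 over Mcpt1, while the pairs among Cpa3, Cma1 and Mcpt9 lie near 0.

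As shares of the summed reads of the group, Srgn took 66.8% (exact 95% interval 66.4 to 67.1) in the IgE library and 68.1% (67.6 to 68.5) in the untreated library. Cpa3 took 27.5% (27.2 to 27.9) with IgE and 25.4% (25.0 to 25.8) untreated. Mcpt1 took 2.44% (2.33 to 2.57) with IgE and 3.17% (3.01 to 3.33) untreated. Ndst2 was at 1.76% and 2.02%, Mcpt9 at 1.21% and 1.06%, and Cma1 at 0.293% and 0.269%, each with IgE first. These are shares of reads and not of molecules, because longer transcripts give more reads. Shares of 1 sum are tied to each other, so a lower share need not be a lower level. Srgn had a lower share with IgE but a higher level, 1642.9 CPM against 1508.8 CPM untreated. The intervals of the shares cover counting error only.

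The wider list of granule proteases and their activators had 41 names, of which 13 had 20 or more reads and 26 were not analysed here. None of the 13 was 2-fold apart, 6 were above 0 and 7 below, and the median log2 fold was -0.04, or 0.12 with a minimum of 100 reads. Of all 12102 genes tested 6181 were above 0 and 5921 below, the background for this and the later lists. Cpa3 had the most untreated reads of the list, and Mcpt9 and Cma1 were its highest folds. The lowest were Gzmm, a granzyme of cytotoxic lymphocytes (8 reads with IgE and 12 untreated, log2 fold -0.86, -2.40 to 0.51), and Mcpt1l3. Ctsc, the dipeptidyl peptidase that converts several granule proteases to their active form, had 5093 reads with IgE and 3746 untreated. Its log2 fold of 0.12 (0.06 to 0.19) was the nearest to that of Srgn among 74 genes of the lists with 100 or more reads. Furin, which cleaves proproteins in the secretory pathway and was picked after its values were seen, was at -0.21 (-0.38 to -0.04).

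Likeness over 2 libraries can rest on the log2 fold alone, and the nearest list genes are given only in that sense. They were Hgsnat (0.28), a lysosomal enzyme of heparan sulfate breakdown, for both Cpa3 and Cma1, and Cstb (0.37), a cytosolic inhibitor of cathepsins, for Mcpt9. For Mcpt1 it was Ndst3 (-0.23), and for Ndst2 it was Dse (-0.04), an epimerase of dermatan sulfate synthesis.

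Few other proteoglycan core proteins could be set beside serglycin. Of 17 names 4 had 20 or more reads and 12 were not analysed here, and none of the 4 was 2-fold apart. Besides Srgn they were Agrn, the basement membrane proteoglycan agrin, with 229 reads with IgE and 238 untreated (log2 fold -0.37, -0.64 to -0.11), Sdc3 with 14 and 13 reads (-0.20, -1.41 to 1.00), and Cd44, a hyaluronan receptor, with 31 and 16 (0.62, -0.28 to 1.60). The 4 genes had a median of -0.04, which was 0.12 with no minimum of reads and -0.13 with a minimum of 100.

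Synthesis of the chains on the core begins with a linker of xylose, galactose and glucuronic acid. Among 14 tested genes of the linker and of sulfate supply none was 2-fold apart. The lowest were B3galt6, a galactosyltransferase of the linker (266 reads with IgE and 319 untreated, log2 fold -0.58, -0.82 to -0.34), and Xylt2, a xylosyltransferase that attaches the first sugar (967 and 1048 reads, -0.44, -0.56 to -0.31). The other linker enzymes tested, named after their values were seen, were B4galt7 (-0.34, -0.56 to -0.12), Xylt1 (-0.16, -0.20 to -0.13), B3gat3 (-0.06, -0.12 to 0.00) and the xylose kinase Fam20b (0.04, -0.01 to 0.09). In sulfate supply Bpnt2, named in the same way, had an interval above 0 (0.12, 0.06 to 0.18). The highest were Pxylp1, a phosphatase that acts on the linker xylose (27 and 15 reads, 0.52, -0.43 to 1.54), and the nucleotide sugar transporter Slc35d1 (0.21, 0.00 to 0.41). Of the whole list 8 genes were above 0 and 6 below, with a median of 0.04.

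Of 11 tested genes for extending and modifying heparin and heparan sulfate chains, none was 2-fold apart, 8 were below 0 and 3 above, with a median of -0.05. The lowest were the chain polymerase subunit Ext1, with 806 reads with IgE and 816 untreated (log2 fold -0.34, -0.48 to -0.19), and Extl2, with 261 reads in each library (-0.32, -0.57 to -0.07). The highest were the uronyl sulfotransferase Hs2st1 (0.10, 0.02 to 0.19), which also had the most untreated reads of the list, and the epimerase Glce (0.09, -0.08 to 0.27). Ndst2 sat near the middle of this list.

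Chondroitin sulfate is the other chain type that serglycin carries. Of 12 tested genes for its synthesis none was 2-fold apart, 8 were below 0 and 4 above, with a median of -0.09. Chst13, a chondroitin sulfotransferase (19 reads with IgE and 24 untreated, log2 fold -0.64, -1.61 to 0.27), and Chpf, a chain polymerising factor (-0.21, -0.44 to 0.01), were lowest. Dsel (0.19, -0.05 to 0.43) and Csgalnact1 (0.16, -0.43 to 0.76) were highest. All 4 had intervals that included 0.

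Of 13 tested genes that break glycosaminoglycans down, none was 2-fold apart and the median was 0.02. Hgsnat had 541 reads with IgE and 356 untreated (log2 fold 0.28, 0.09 to 0.48), and Ids, the iduronate sulfatase, 8214 and 5871 (0.17, 0.12 to 0.21). The lowest were the heparan sulfamidase Sgsh (-0.32, -0.67 to 0.03) and the glucosaminidase Naglu (-0.23, -0.31 to -0.15).

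Of the 10 protease inhibitors reported here 1 was at least 2-fold apart, against the 2.63% of all genes tested. None of the other 7 lists held such a gene. Spint1, an inhibitor of membrane-bound serine proteases, had 23 reads with IgE and 6 untreated (log2 fold 1.55, 0.28 to 3.21). It is weakly counted. Over all genes tested the 2-fold rule called 161 higher and 157 lower, but 21 and 15 with a minimum of 100 reads. Most such genes thus had few reads, and the 2.63% is not a background for genes as weakly counted as Spint1. Cstb (0.37, 0.22 to 0.51) was the next highest. Spint2, a relative of Spint1 (-0.20, -0.44 to 0.03), and Serpinc1, which encodes antithrombin (-0.06, -0.46 to 0.35), were the lowest, and the list median was 0.10.

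Among 14 transcription factors of mast cells, basophils and their progenitors none was 2-fold apart, 11 were below 0 and 3 above, and the median was -0.09. Over all 12102 genes tested 5921 were below 0 and 6181 above. Zfpm1, a cofactor of GATA proteins, was lowest with 605 reads with IgE and 735 untreated (log2 fold -0.60, -0.76 to -0.44), followed by Lmo2 (-0.19, -0.36 to -0.01). Gata1 (0.10, 0.02 to 0.19) and Spi1 (0.03, -0.07 to 0.13) were highest. Gata2 and Mitf, which drive mast cell genes and were picked after their values were seen, were at -0.11 (-0.12 to -0.09) and -0.07 (-0.11 to -0.03).

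**Figure D4:**
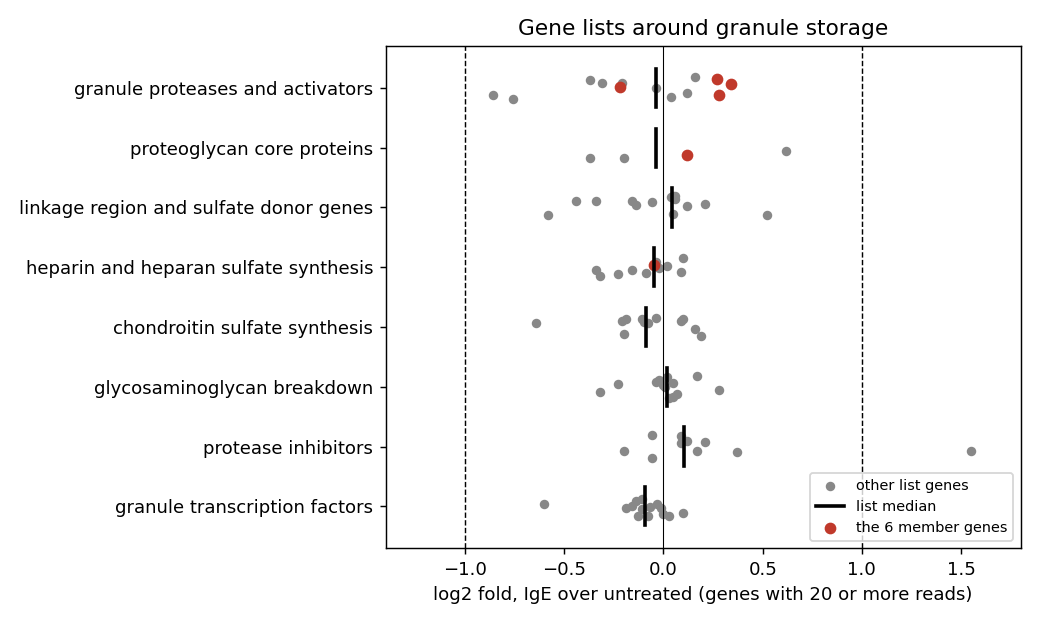
log2 fold of the IgE library over the untreated library (horizontal axis) for the reported genes with 20 or more reads in 8 lists around granule storage (rows; vertical scatter within a row only separates points); red points are the 6 granule genes, black bars list medians and dashed lines a 2-fold difference. The point beyond the dashed lines is the protease inhibitor Spint1 (1.55), and the list medians lie between -0.09 and 0.10.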

How the data were processed

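The authors deposited raw read counts per gene name for 1 IgE and 1 untreated library with poly(A) selection, and for their comparison of the libraries a log2 fold change with its p-value, raw and adjusted, per the file headers. Tools listed in the submitters' processing notes are HISAT2 2.1.0, fastp 0.23.0 and DESeq2 1.18.1, with the build rn6 and no word on what each did. How reads were counted, and with which strand setting, is not given in the sources used here. Running edgeR's exact test with a fixed dispersion of 0.01 returned the deposited log2 folds to within 4.67e-08.

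Of 16990 rows, 2077 were identical repeats and were dropped. Log2 CPM were computed over the whole table with edgeR 4.0.16 (R 4.3.3), a prior of 0.5 counts and TMM scaling. A 2-fold rule of size was applied to genes with at least 20 reads in the 2 libraries together. Fold intervals are exact Clopper-Pearson at 95%, and intervals of read ratios are Woolf's. A count of 3 reads, taken as the floor, is 0.114 CPM in the IgE and 0.143 CPM in the untreated library. Motifs were searched in RefSeq promoters (GRCr8), which matched 6 of 6 genes by symbol. On simulated data for this comparison (14913 genes, counting error only), 200 genes were changed by a log2 of 1.5. The changed genes were drawn only from those with 100 or more reads. Of them 100% were recovered as 2-fold apart, and 57 of 11909 unchanged genes were called. Folds as small as those of the 6 granule genes were not simulated.

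The 6 genes and the lists were chosen with earlier results of these data known. Named are the 6 genes, the 2 highest and 2 lowest folds of each list, the gene with most untreated reads in the protease and heparin lists, and the list gene nearest in fold to each member, unless marked as picked after their values were seen. Scaling by DESeq2 1.42.0 size factors or by library totals was tried as an alternative, as were a prior of 5 counts, no minimum or 100 reads, a 1.5-fold rule, and all rows kept. A result of the protease inhibitor list is not reported here, and that list's counts and median leave it out.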

Additional observations from a re-analysis of the deposited data

How the results depend on the processing

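The log2 folds of the 6 granule genes stayed within their counting intervals under all 5 alternatives of scaling, prior and minimum, from -0.23 for Mcpt1 to 0.34 for Mcpt9. The alternatives of minimum could not move a fold, since all 6 genes had more than 100 reads in the 2 libraries together. A prior of 5 counts moves folds little at such depth. With library totals or DESeq2 size factors, chosen for the intervals after seeing the data, the intervals excluded 0 for 4 members, as with TMM. With an assumed coefficient of variation of 0.1 between cultures they excluded 0 for 0 members, since that spread widens every interval. Genes at least 2-fold higher and lower with IgE, 161 and 157, numbered 104 and 99 with a prior of 5 counts, 855 and 875 with no minimum, 21 and 15 with a minimum of 100 reads, and 443 and 427 with a 1.5-fold rule. The protease list median of -0.04 was -0.21 with no minimum and 0.12 with a minimum of 100 reads, and the core protein median of -0.04 was 0.12 with no minimum and -0.13 with a minimum of 100 reads, since the minimum decides which genes count. The 1.5-fold rule gave 2 genes in the protease list and 1 each in the core protein, chondroitin and transcription factor lists, in place of 0. Over all 12102 genes tested that rule gave the 443 higher and 427 lower genes above. Those of the protease, core protein and chondroitin lists (Gzmm, Mcpt1l3, Cd44 and Chst13) each had fewer than 100 reads in the 2 libraries together. Without Srgn, the shares of the remaining reads were 82.8% with IgE and 79.6% untreated for Cpa3, 7.35% and 9.92% for Mcpt1, 5.3% and 6.33% for Ndst2, 3.63% and 3.31% for Mcpt9, and 0.883% and 0.842% for Cma1, larger by construction. Levels per length were not computed, since transcript lengths were not used here. No paired analysis was possible because there was a single library per condition, which also meant that none could be left out. Of the 6 granule genes Cma1 had the fewest reads and the widest interval, many list genes had fewer reads still, and the spread between cultures is unknown for all genes.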
